A study of Mus musculus with 12 samples.

Results

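The genes described here are 10 growth factor receptors and ligands: the 4 receptors of the ErbB family (Egfr, Erbb2, Erbb3 and Erbb4), 2 of their ligands (Nrg1 and Hbegf), the FGF receptors Fgfr1 and Fgfr2, the ligand Fgf2 and the IGF receptor Igf1r. The list was drawn up by gene name and family, with earlier results of these data known, and makes up 10 of the 48709 genes counted in the files. RNA was sequenced from primary hippocampal cultures of CD1 mouse embryos taken at embryonic day 17, which hold neurons and glial cells, and per the methods of the study the hippocampi of several embryos were pooled. The cultures received lipid nanoparticles at day 10 in vitro and were harvested 48 h later, at day 12. In the mimic group (n = 6) the particles carried a mimic of miR-148a-3p, a synthetic copy that adds to the amount of this microRNA in the cell, and in the control group (n = 6) they carried a negative control oligonucleotide. Both groups were exposed to ApoE4 protein according to the methods, so the comparison asks what the mimic changed in cultures that all carried this exposure. The labels do not say whether the 6 samples of a group came from separate culture preparations, so the p-values measure the spread between these samples, which may be technical.

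ErbB receptors are tyrosine kinases of the cell surface. Egfr binds EGF, TGF-alpha, HB-EGF and related ligands, Erbb3 and Erbb4 bind neuregulins, and Erbb2 binds no known ligand and acts as a partner of the others. FGF receptors are tyrosine kinases that respond to fibroblast growth factors, and Igf1r responds to insulin-like growth factors; all of them signal mainly through RAS-ERK and PI3K-AKT. In the brain, Egfr is known from neural progenitors and glial cells, Erbb4 from inhibitory neurons, Fgfr2 and Fgfr3 mainly from glia and Fgfr1 from neurons and progenitors.

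Library totals ranged from 20018234 to 37149112 counts. The first principal component (38.4% of the variance) separated the groups, with control libraries between -19.19 and -11.57 and mimic libraries between 11.58 and 19.95. Control replicate 1, the library with the lowest total, stood apart on the second component (21.1%) at 30.72, against -12.27 to 10.45 for the other libraries. The labelled culture type was visible in its markers: the summed level of 10 neuronal genes was 7484 to 8210 CPM in control and 7497 to 7824 CPM in mimic (CPM, counts scaled to a common library size after TMM normalization), and that of 10 astrocyte genes was 5276 to 5812 CPM in control and 6497 to 6932 CPM in mimic.

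A microRNA recognises a transcript mainly through its seed, bases 2 to 8 counted from the 5′ end. The oligonucleotides of the reagent list are shown because their seeds set which of the 10 transcripts hold a match. The sources differ on the control, a siRNA in the design text and a scrambled RNA in the methods, so the values for its seed assume that the listed negative control was the one applied. Capitals mark the seed, and the listed mimic sequence is identical to the RefSeq mature miR-148a-3p, which lies at chr6:51269829-51269850 on the minus strand of GRCm38.p6.
miR-148a-3p: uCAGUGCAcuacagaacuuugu
negative control: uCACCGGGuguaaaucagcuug

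The longest 3′ untranslated region (UTR) of each gene was searched for the reverse complement of bases 2 to 8, or of bases 2 to 7 followed by an A. Among the 10 genes, 2 held a match for the mimic and 0 held one for the negative control. Over all tested genes with an annotated 3′ UTR, 3308 of 15082 (21.9%) held a match for the mimic and 666 (4.42%) held one for the negative control. Egfr had 1 match just after base 2943 of a 3′ UTR of 6303 bases (chr11:16914784-16914809, plus strand, GRCm38), in 1 of its 3 annotated 3′ UTRs. Erbb3 had 2 matches, at bases 495 (chr10:128568862-128568887, minus strand) and 1488 (chr10:128567869-128567894, minus strand) of a 3′ UTR of 1845 bases. Each pair of coordinates spans 26 bases that include the match. The 3 matches are shown with the bases around them, the matching letters in capitals.
Egfr, bases 2 to 7 and an A: actttgactacataaGCACTGAagca
Erbb3, bases 2 to 8: ctacgaactgaacaTGCACTGtgagc
Erbb3, bases 2 to 8 and an A: actccgtttgttggTGCACTGAatca
A match is a description of sequence and does not show binding. The 10 genes had a median 3′ UTR length of 2661 bases, against 1173 bases over the tested genes, and a longer region has more places for a match. Tested genes with a mimic match had a median log2 fold change (mimic over control) of -0.036 and those without one a median of 0.0013. For the negative control the medians were 0.038 with a match and -0.0087 without one. Neither difference between medians was tested.

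Of the 10 genes, 4 differed between mimic and control at an adjusted p under 0.05 in edgeR's quasi-likelihood test, against 22.2% of the 18847 genes tested. Both genes that rose, Egfr and Fgfr2, encode receptors (2 of 7 receptors; 11.5% of all tested genes were called higher), and both genes that fell, Hbegf and Nrg1, encode ErbB ligands (2 of 3 ligands; 10.7% of all tested genes were called lower). In 3 of the 10, Egfr, Fgfr2 and Hbegf, the CPM values of the groups did not overlap, against 13.3% of all tested genes. All 10 genes passed the filter on low counts. Their median log2 fold change was 0.054, against -0.012 over all tested genes, for which the 5th and 95th percentiles were -0.47 and 0.50. The plot of CPM by library shows the 12 values of each gene.

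**Figure D1:**
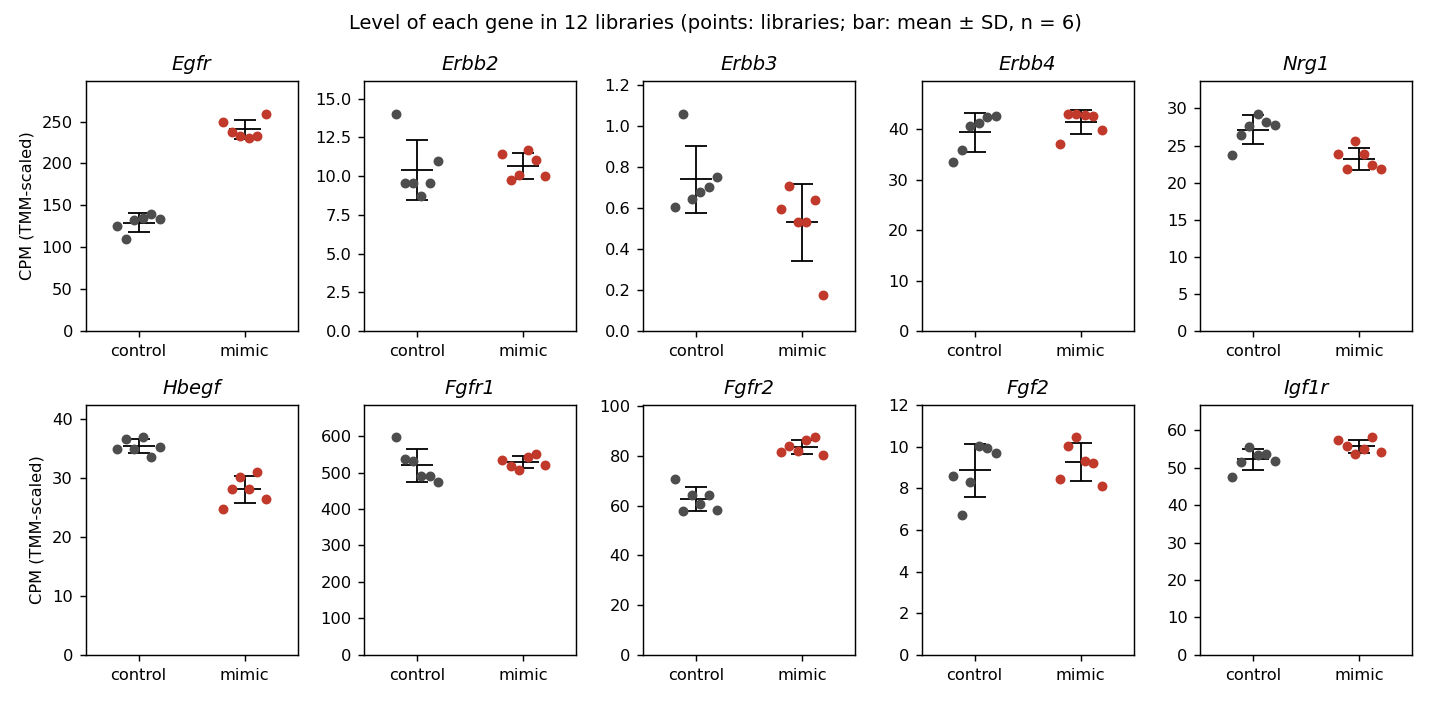
CPM (y axis, starting at 0, scaled by TMM) of the 10 genes in the 6 control and 6 mimic libraries; points are libraries in replicate order and bars are mean ± SD. The mimic points lie above all control points for Egfr and Fgfr2 and below them for Hbegf, and 3 of the 6 mimic points lie below all control points for Nrg1.

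Egfr had the largest change of the 10 genes. It spans chr11:16752203-16918158 on the plus strand (mm10). Its level was lowest at 109.5, had a median of 133.7 and was highest at 140.1 CPM in control, and it was lowest at 230.9, had a median of 235.5 and was highest at 259.4 CPM in mimic. Every mimic library lay above every control library. The means were 129 ± 10.9 (control) and 241 ± 11.3 CPM (mimic; SD, n = 6 each), a 1.86-fold rise (log2 fold change 0.89, SE 0.052, 95% interval 0.78 to 1.00, adjusted p = 2.84e-09, edgeR). Each library held between 2479 and 7841 Egfr counts. Leaving out 1 library at a time kept the log2 fold change between 0.85 and 0.92. Egfr is also 1 of the 2 genes with a mimic seed match shown above.

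The 3 other ErbB receptors did not pass the test. Erbb4, the neuregulin receptor of inhibitory neurons, had a lowest, median and highest level of 33.4, 40.9 and 42.5 CPM in control and of 37.1, 42.7 and 43.0 CPM in mimic. These ranges overlapped, and the log2 fold change was 0.069 (95% interval -0.057 to 0.19, adjusted p = 0.470, edgeR). It was 0.028 without control replicate 1 and 0.098 without mimic replicate 1. Erbb2, the partner receptor, had a lowest, median and highest level of 8.69, 9.58 and 14.0 CPM in control and of 9.76, 10.6 and 11.7 CPM in mimic, with control replicate 1 the highest of the 12 libraries. Its log2 fold change was 0.051 (95% interval -0.15 to 0.25, adjusted p = 0.771, edgeR). It was 0.14 without that library (adjusted p = 0.132, edgeR) and 0.0032 without control replicate 4.

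Erbb3, a neuregulin receptor best known from Schwann cells and the oligodendrocyte lineage, was close to the limit of detection, with 5 to 25 counts in a library. Its lowest, median and highest level was 0.606, 0.692 and 1.06 CPM in control and 0.176, 0.566 and 0.711 CPM in mimic. All 6 mimic libraries lay below the control mean and 4 lay below every control library. The log2 fold change was -0.46 (SE 0.24), with a 95% interval of -0.96 to 0.041 that includes 0 (adjusted p = 0.193, edgeR). Control replicate 2 at 1.06 CPM and mimic replicate 6 at 0.176 CPM, from 5 counts, stood apart from their groups, and the log2 fold change was -0.29 without mimic replicate 6. Erbb3 holds 2 seed matches for the mimic, and at these counts its estimated change could not be told from none.

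Both ErbB ligands among the 10 genes fell. Hbegf encodes a membrane-anchored ligand of Egfr and Erbb4 that is released by shedding. Its level was lowest at 33.6, had a median of 35.0 and was highest at 36.8 CPM in control, and it was lowest at 24.7, had a median of 28.1 and was highest at 31.0 CPM in mimic, so that every mimic library lay below every control library. The log2 fold change was -0.33 (SE 0.051, 95% interval -0.44 to -0.22, adjusted p = 0.000128, edgeR), with means of 35.3 ± 1.20 (control) and 28.0 ± 2.31 CPM (mimic; SD, n = 6 each). Hbegf lies on chromosome 18 at 36504927-36515805, minus strand.

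Nrg1 encodes neuregulin 1, a ligand of Erbb3 and Erbb4 (chr8:31814551-32884029, minus strand). Its lowest, median and highest level was 23.7, 27.7 and 29.3 CPM in control and 21.8, 23.1 and 25.6 CPM in mimic. The groups overlapped through control replicate 1, the lowest control library, which lay below 3 of the mimic libraries. The means were 27.2 ± 1.94 (control) and 23.2 ± 1.5 CPM (mimic; SD, n = 6 each), and all 6 mimic libraries lay below the control mean. The log2 fold change was -0.23 (SE 0.054, 95% interval -0.34 to -0.11, adjusted p = 0.00526, edgeR), and it was -0.26 without control replicate 1. An antisense RNA, Gm26578, shares 482 exon bases with Nrg1, and since the strand used in counting is not stated the reads of the pair cannot be told apart there. Gm26578 averaged 37.3 counts in a library and Nrg1 averaged 755.5.

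**Figure D2:**
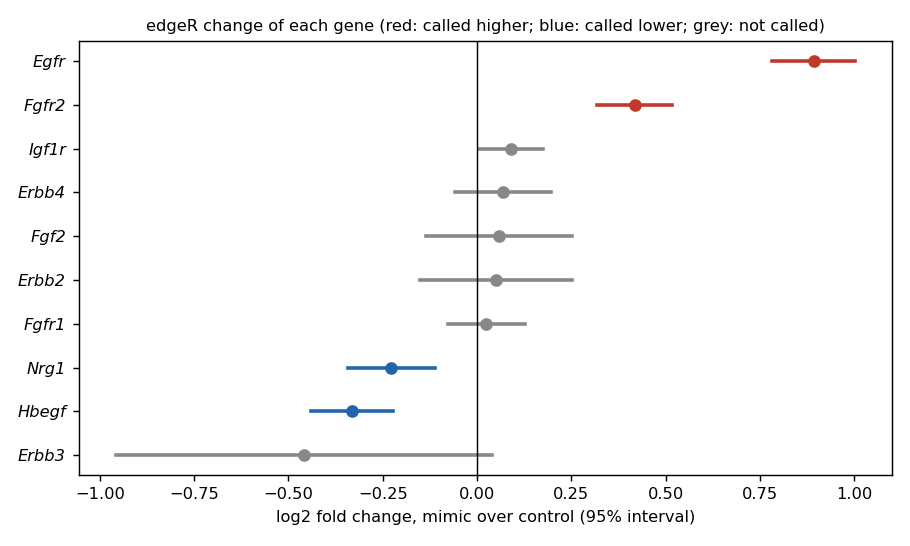
Log2 fold change of each gene, mimic over control (x axis), with its 95% interval from edgeR; red points were called higher, blue points lower and grey points were not called. Egfr at 0.89 and Fgfr2 at 0.42 lie to the right of 0, Hbegf at -0.33 and Nrg1 at -0.23 to the left, and the interval of Erbb3 is the widest.

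Fgfr2 was the second receptor that rose. Its level was lowest at 57.7, had a median of 62.5 and was highest at 70.8 CPM in control, and it was lowest at 80.5, had a median of 83.1 and was highest at 87.4 CPM in mimic. The groups did not overlap, and the highest control library was control replicate 1. The means were 62.6 ± 4.93 (control) and 83.6 ± 2.81 CPM (mimic; SD, n = 6 each), a 1.34-fold rise (log2 fold change 0.42, SE 0.047, 95% interval 0.32 to 0.52, adjusted p = 4.21e-06, edgeR). The annotated span of Fgfr2 (chr7:130162451-133123350, minus strand) reaches exons of Ctbp2, with 314 exon bases shared on the same strand. These bases are part of the exon length used for the level of Fgfr2 per kilobase. Ctbp2 itself had a log2 fold change of -0.083 (adjusted p = 0.0957, edgeR) at 2137.1 counts in a library.

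Fgfr1, the other FGF receptor of the 10 genes, did not pass the test. Its lowest, median and highest level was 472.7, 511.7 and 596.3 CPM in control and 507.8, 527.5 and 551.2 CPM in mimic, the mimic range lying inside that of control. The log2 fold change was 0.025 (95% interval -0.078 to 0.13, adjusted p = 0.784, edgeR). Fgf2, the basic fibroblast growth factor, ranged from 6.71 to 10.02 CPM in control (median 9.14) and from 8.12 to 10.4 CPM in mimic (median 9.26), and these ranges overlapped. Its log2 fold change was 0.058 (SE 0.092, adjusted p = 0.721, edgeR). Fgf2 shares 640 exon bases with the antisense gene Nudt6, which averaged 18.5 counts against 272.8 for Fgf2. The signs of both small differences depended on single libraries: Fgfr1 was at -0.0026 without control replicate 6, and Fgf2 was at -0.0039 without control replicate 2.

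Igf1r, the receptor of insulin-like growth factors, had a lowest, median and highest level of 47.4, 52.7 and 55.5 CPM in control and of 53.6, 55.4 and 58.1 CPM in mimic. All 6 mimic libraries lay above the control mean and 3 lay above every control library. The log2 fold change of 0.090 (SE 0.040, 95% interval 0.0055 to 0.17) did not pass adjustment (adjusted p = 0.126, edgeR, unadjusted p = 0.0383).

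Levels of different genes were compared per kilobase of exon (RPKM, from the scaled totals). In control, Fgfr1 was highest at 52.7 ± 4.57 RPKM, followed by Egfr at 11.4 ± 0.962 RPKM, Hbegf at 7.30 ± 0.247 RPKM and Fgfr2 at 6.07 ± 0.477 RPKM (SD, n = 6 each), with no overlap between neighbours in this order. Erbb4, Igf1r, Nrg1 and Erbb2 followed, between 3.18 and 2.00 RPKM on average, and neighbours among these genes overlapped in range. Fgf2 at 1.31 ± 0.188 RPKM and Erbb3 at 0.123 ± 0.0274 RPKM were lowest. In mimic, Fgfr2 at 8.10 ± 0.272 RPKM stood above Hbegf at 5.80 ± 0.478 RPKM, so that these genes changed places, again without overlap. Egfr reached 21.3 ± 1.00 RPKM in mimic while Fgfr1 was at 53.6 ± 1.66 RPKM.

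**Figure D3:**
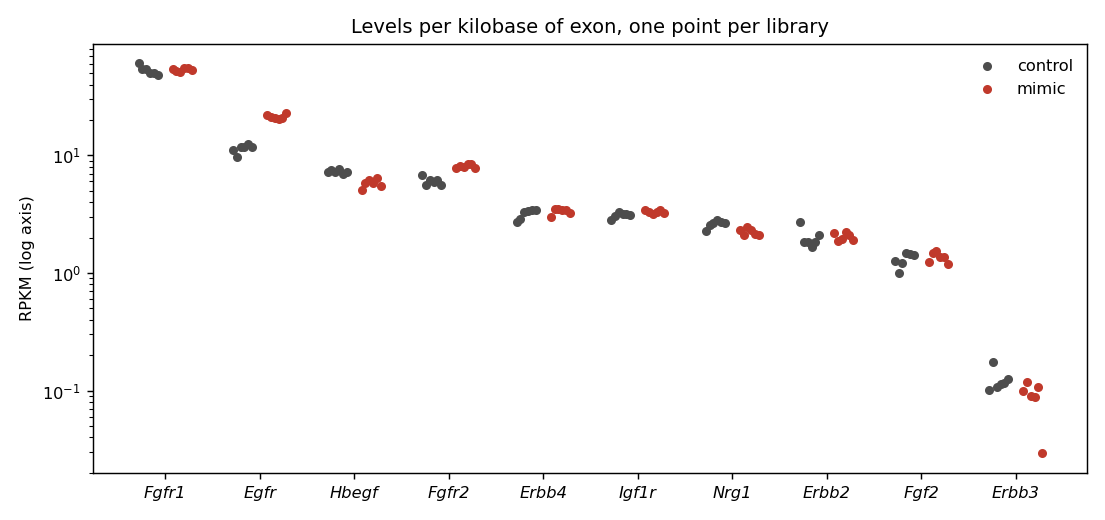
RPKM of the 10 genes on a log axis (y axis), 1 point per library, control in grey and mimic in red, ordered by the mean level in control. Fgfr1 lies highest at about 53 RPKM in both groups, Egfr moves from 11.4 to 21.3 RPKM, and Hbegf and Fgfr2 change places.

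Summed over the 4 ErbB receptors, the level per length was 16.7 ± 1.14 RPKM in control and 26.7 ± 0.793 RPKM in mimic (SD, n = 6 each). Egfr made up 68.2% ± 1.54 of this sum in control and 79.5% ± 1.40 in mimic. The share of Erbb4 was 19.0% ± 1.33 in control and 12.5% ± 1.04 in mimic, and that of Erbb2 was 12.0% ± 2.35 and 7.67% ± 0.667. Erbb3 held 0.748% ± 0.230 of the sum in control and 0.333% ± 0.120 in mimic. These shares add up to the whole, so the share of a receptor can be smaller in mimic where its own level, as for Erbb4 and Erbb2, did not pass the test.

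**Figure D4:**
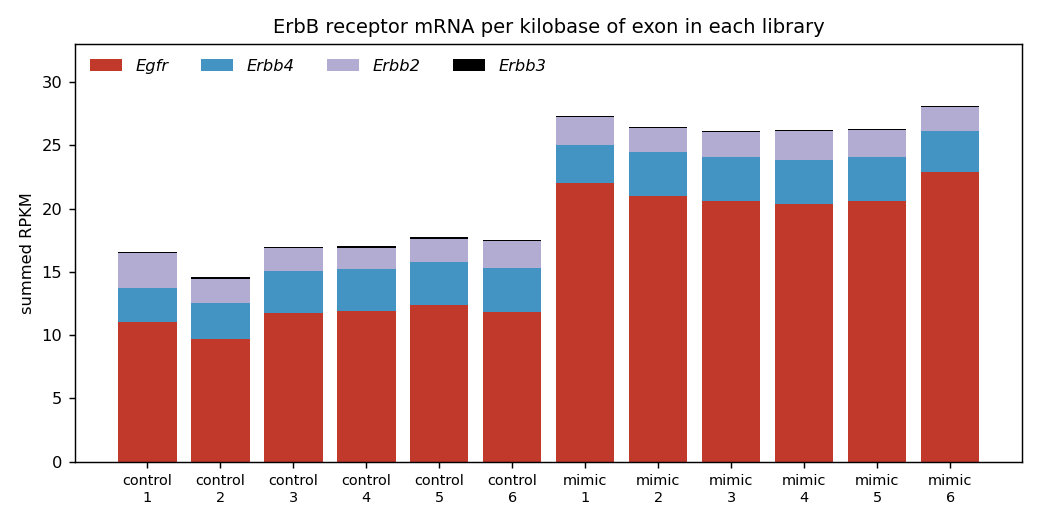
Summed level of the 4 ErbB receptor mRNAs per kilobase of exon (y axis, RPKM) in each of the 12 libraries, stacked by receptor. The 6 control bars reach 14.6 to 17.8 RPKM and the 6 mimic bars 26.1 to 28.1 RPKM, with Egfr as the largest segment in every library.

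Among the 4 FGF receptors with a kinase domain, which include Fgfr3 and Fgfr4 from the pathway lists, Fgfr1 made up 78.6% ± 0.905 of the summed level per length in control and 72.4% ± 0.302 in mimic (SD, n = 6 each). Fgfr3, a receptor known from astrocytes, was at 8.06 ± 0.809 RPKM in control and 12.1 ± 0.517 RPKM in mimic and rose beside Fgfr2. Its log2 fold change was 0.59 (SE 0.055, adjusted p = 5.62e-07, edgeR), with a highest control library of 68.1 CPM and a lowest mimic library of 82.9 CPM. Fgfr4, named to complete the family after its values were seen, stayed below 0.4 RPKM in every library.

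The surrounding pathway was followed in 6 lists of 132 genes in all, of which 123 were tested. Of these, 28 were called higher and 17 lower in mimic, 36.6% together against 22.2% of all tested genes, with a median log2 fold change of 0.024 against -0.012 over all tested genes. The counts were 34 higher and 23 lower without control replicate 1. In their longest 3′ UTR, 43 of the 123 genes had a mimic seed match, against 21.9% of tested genes with a 3′ UTR. Of those 43, 8 were called lower and 9 higher, where 10.7% and 11.5% of all tested genes were. Among the pathway genes named below, Tgfa, Cblb and Nras fell and hold a match, and Lrig1, Fgfr3, Fgf1, Pik3r3, Etv5, Spry4 and Dusp7 rose and hold one.

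Among the 9 other ErbB ligands, 7 were tested, 1 was called higher and 1 lower. That made 28.6% called, against 22.2% of all tested genes, with a median log2 fold change of -0.072. Tgfa, a ligand of Egfr, averaged 21.1 ± 2.25 (control) and 18.4 ± 0.991 CPM (mimic; SD, n = 6 each). Its log2 fold change was -0.19 (SE 0.065, adjusted p = 0.0435, edgeR), and it lost the call in 9 of 12 omissions of a single library, with adjusted p between 0.0509 and 0.106. The call upwards was Btc, betacellulin, named here after its values were seen, with a log2 fold change of 1.22 (SE 0.28, adjusted p = 0.00403, edgeR) and no overlap between the groups, at 6.75 counts in a library on average. The neuregulin genes Nrg2 and Nrg3, likewise named after their values were seen, were not called, with log2 fold changes of -0.12 and -0.081.

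Genes that shed ErbB ligands or take ErbB receptors out of service formed a list of 15. Of these, 4 were called higher and 2 lower, 40.0% together against 22.2% of all tested genes (median log2 fold change 0.022). Lrig1, a transmembrane protein that promotes loss of ErbB receptors, rose from a control mean of 88.0 ± 10.7 to a mimic mean of 122 ± 6.97 CPM (SD, n = 6; log2 fold change 0.47, SE 0.065, adjusted p = 3.98e-05, edgeR). Its relative Lrig3 rose by a log2 fold change of 0.35 (SE 0.10, adjusted p = 0.0200, edgeR). Cblb, a ubiquitin ligase that marks receptors for degradation, had a log2 fold change of -0.22 (SE 0.046, adjusted p = 0.00162, edgeR). Its relative Cbl, named after its values were seen, went the other way, from a control mean of 139 ± 7.19 to a mimic mean of 156 ± 3.20 CPM (log2 fold change 0.17, SE 0.037, adjusted p = 0.00289, edgeR). Without control replicate 1, 4 genes of the list were called higher and 5 lower. The sheddases Adam10 and Adam17, named after their values were seen, hold mimic seed matches and were not called, with log2 fold changes of -0.15 (adjusted p = 0.105, edgeR) and -0.022 (adjusted p = 0.807, edgeR).

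Of 24 other genes of FGF family members, receptors and partners, 20 were tested, 3 were called higher and 0 lower. The median log2 fold change was 0.026, and the share called was 15.0% against 22.2% of all tested genes. Beside Fgfr3, the gene of the broadly binding ligand Fgf1 rose from a control mean of 27.8 ± 6.54 to a mimic mean of 46.0 ± 4.38 CPM (SD, n = 6; log2 fold change 0.73, SE 0.12, adjusted p = 0.000380, edgeR), with a highest control library of 39.7 CPM and a lowest mimic library of 40.1 CPM. The third call was Kl (log2 fold change 0.95, SE 0.33, adjusted p = 0.0472, edgeR), at 9.75 counts in a library on average and named after its values were seen. The calls were 5 higher and 2 lower without control replicate 1.

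In the insulin and IGF list, 5 of 17 tested genes were called higher and 6 lower, 64.7% together against 22.2% of all tested genes. The median log2 fold change of the list was -0.16. Of the 6 Igfbp genes on this list, 2 rose, 2 fell and 2 were not called. Igfbp4 rose from a control mean of 114 ± 24.3 to a mimic mean of 215 ± 6.93 CPM (log2 fold change 0.92, SE 0.10, adjusted p = 9.28e-06, edgeR), while Igfbp7 (log2 fold change -0.72, SE 0.11, adjusted p = 0.000136, edgeR) and Igfbp5 (log2 fold change -0.52, SE 0.13, adjusted p = 0.00912, edgeR) fell. Igfbp7 shares 85 exon bases with Polr2b on the opposite strand, whose own log2 fold change was -0.0057 at 3484 counts in a library. Igfbp3, named after its values were seen, also rose (log2 fold change 0.44, adjusted p = 3.95e-08, edgeR). Igfbp2 and Igfbp6, likewise named after their values were seen, were not called (adjusted p = 0.289 and 0.989, edgeR). Igfbp5 went from a control mean of 542 ± 81.7 to a mimic mean of 378 ± 68.0 CPM, and the highest mimic library at 457.8 CPM lay above the lowest control library at 397.1 CPM.

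The list of adaptors and of the RAS-ERK and PI3K-AKT kinases held 40 tested genes, of which 6 were called higher and 4 lower (median log2 fold change 0.032), a share of 25.0% against 22.2% of all tested genes. Stat5b, a transcription factor activated by receptor kinases, had a log2 fold change of 0.33 (SE 0.054, adjusted p = 0.000209, edgeR). Pik3r3, a regulatory subunit of PI3K, had a log2 fold change of 0.27 (SE 0.044, adjusted p = 0.000218, edgeR), and Nras, a RAS gene, had one of -0.27 (SE 0.057, adjusted p = 0.00180, edgeR). Both Pik3r3, which rose, and Nras, which fell, hold a mimic seed match. Pik3r3 shares 1289 exon bases on the same strand with the annotated gene Gm49337.

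Among genes induced by ERK signalling or acting as its feedback, 24 were tested, 9 were called higher and 4 lower. That made 54.2% called, against 22.2% of all tested genes, with a median log2 fold change of 0.078. Etv4 and Etv5, transcription factors induced by FGF signalling, rose with log2 fold changes of 0.72 (SE 0.090, adjusted p = 2.29e-05, edgeR) and 0.54 (SE 0.059, adjusted p = 2.99e-06, edgeR). Etv5 lay between 67.1 and 87.8 CPM in control and between 99.9 and 112.9 CPM in mimic. The immediate early gene Ier3 fell from a control mean of 7.17 ± 0.609 to a mimic mean of 4.22 ± 0.703 CPM (SD, n = 6; log2 fold change -0.76, SE 0.098, adjusted p = 2.10e-05, edgeR). Among the other calls, named after their values were seen, the feedback inhibitors Dusp6 (log2 fold change 0.52), Spry2 (0.48), Spry1 (0.47) and Spry4 (0.33) rose, with edgeR adjusted p from 8.41e-06 to 0.000240. The immediate early gene Egr1 (log2 fold change 0.21, adjusted p = 0.0348, edgeR) and the feedback genes Dusp7 (0.22) and Spred3 (0.12) were also called higher. The growth-associated transcription factors Myc (log2 fold change -0.33) and Fos (-0.28) and the cyclin Ccnd1 (-0.14) fell, with edgeR adjusted p from 0.000532 to 0.0461, so the list did not move in 1 direction.

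**Figure D5:**
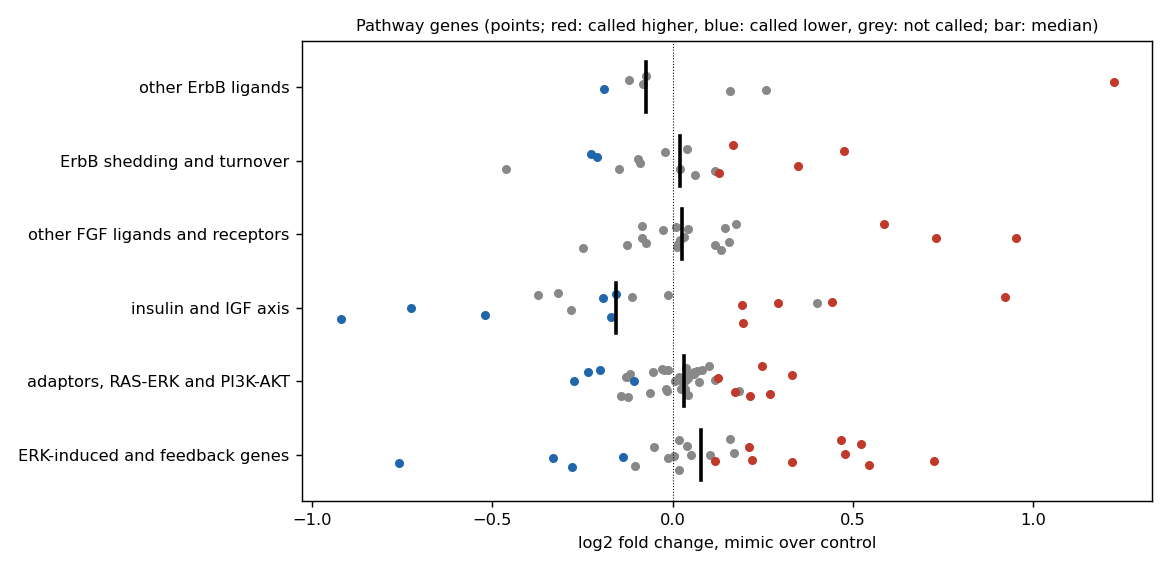
Log2 fold change, mimic over control (x axis), of the tested genes in the 6 pathway lists (y axis); each point is a gene, red if called higher, blue if called lower and grey if not called, and the black bar is the median of the list. The medians lie between -0.16 for the insulin and IGF list and 0.078 for the ERK-induced and feedback list. Called genes lie on both sides of 0 in every list except that labelled other FGF ligands and receptors.

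Markers of glial and dividing cells moved with the groups in the libraries in which Egfr, Fgfr2 and Fgfr3 rose, and their part in those results was not tested. In bulk samples, fewer or more cells of a type and less or more RNA per cell cannot be told apart. Of 10 astrocyte genes, 8 were called higher and 1 lower: Slc1a3, a glutamate transporter, had a log2 fold change of 0.99 (SE 0.038, adjusted p = 4.23e-11, edgeR) and Gfap, the filament protein of reactive astrocytes, had one of -0.90 (SE 0.078, adjusted p = 5.52e-07, edgeR). Of 11 genes of the oligodendrocyte lineage, 6 were called higher and 1 lower, and their summed level ran from 429.9 to 725 CPM in control and from 811.7 to 1005 CPM in mimic. Olig1 (log2 fold change 0.96, SE 0.16, adjusted p = 0.000765, edgeR) and Sox10 (0.76, SE 0.16, adjusted p = 0.00176, edgeR) had the largest changes in that list. All 10 genes of dividing cells were called higher, with summed levels of 224.1 to 269.0 CPM in control and 448.7 to 471.4 CPM in mimic. Ccnb1 and Birc5 led them, with log2 fold changes of 1.34 and 1.24. The share called was 90.0% for astrocyte, 63.6% for oligodendrocyte lineage and 100% for dividing cell genes, against 22.2% of all tested genes. Without control replicate 1, the calls were 8 higher and 2 lower in the astrocyte list, 7 and 2 in the oligodendrocyte list, 10 and 0 among genes of dividing cells and 2 and 3 in the neuronal list.

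Markers of neurons and of non-neural cells were given beside the ligands that fell, and their part in those falls was likewise not tested. Of 10 neuronal genes, 1 was called higher and 3 lower, with a median log2 fold change of 0.025. The falls included Tubb3 (log2 fold change -0.32) and Neurod2 (-0.27), the rise was Nefm (0.17, adjusted p = 0.0380, edgeR), and the other 6 were not called. Of 11 interneuron genes, 1 was called higher and 2 lower, with log2 fold changes of -0.85 for Pvalb and -0.23 for Dlx2, and the call of Dlx2 was lost in 5 of 12 omissions of a single library. The interneuron gene called higher was Gad2, at 0.14 (adjusted p = 0.0129, edgeR), which like Nefm was named after its values were seen. The summed level of the interneuron genes was 348.7 to 385.5 CPM in control and 362.8 to 379.1 CPM in mimic. Of the smooth muscle and mesenchymal genes, 9 were tested, 1 was called higher and 2 lower, with log2 fold changes of -2.86 for Acta2 and -1.74 for Tagln. The gene called higher was the mural marker Rgs5, named after its values were seen, at 1.16 (adjusted p = 1.27e-05, edgeR), the other 6 including the collagen genes were not called, and the summed level of the list was 203.0 to 270.9 CPM in control and 103.3 to 230.5 CPM in mimic. Of 8 endothelial genes, 6 were tested and 2 were called lower, with Kdr at a log2 fold change of -0.64, and the defining marker Cldn5, named after its values were seen, was at 0 in all 6 control libraries. Microglial genes were low, with a summed level of 23.4 to 27.0 CPM in control and 22.1 to 34.1 CPM in mimic over 10 genes, 2 of them called lower.

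The genes whose log2 CPM followed each member most closely over the 12 libraries are given as a description, since the libraries share the group difference. Egfr was closest to Megf10 and Reep3 (Pearson r = 0.994 for both, and 0.865 and 0.873 after the group means were removed). Fgfr2 was closest to Kcne1l (r = 0.987, and 0.888 after removal) and to Igfbp4 (r = 0.980, and 0.843 after removal), which is also on the insulin and IGF list. Hbegf was closest to Mt2 (r = 0.977) and Fam161b (r = 0.975), and Nrg1 was closest to Ttc8 (r = 0.951) and Ifit2 (r = 0.949). For the genes that were not called, the closest were Nptxr and Lpcat4 for Fgfr1 (r = 0.962 and 0.957), Hnmt and Ddx19b for Erbb4 (r = 0.946 and 0.942), Cc2d2a and Ccdc58 for Igf1r (r = 0.928 and 0.924), Rad23b and Golph3 for Fgf2 (r = 0.919 and 0.917) and Zfp46 and Hivep3 for Erbb2 (r = 0.894 and 0.892). Erbb3 was left out because it averaged 18.8 counts in a library.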

How the data were processed

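RNA sequencing of 12 hippocampal cultures, 6 per group by the sample labels, was analysed from raw counts per gene. Per the labels and the methods, poly(A) RNA was sequenced as single-end reads, aligned to mm10 with STAR 2.5.2b and counted with featureCounts of Subread 1.5.1; the authors deposited these counts for 48709 Ensembl genes, and whether strand was used is not stated in the sources used here. A normalized table of the series was not used here.

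A gene was tested if 50% or more of the samples held 5 or more counts for it. Testing used edgeR 4.0.16 in R 4.3.3 (quasi-likelihood F-test, robust) with TMM scaling and no covariate. P-values were adjusted over all 18847 tested genes by the Benjamini-Hochberg method, and an adjusted p under 0.05 was called. The SE is the log2 fold change divided by the square root of F. CPM used TMM-scaled totals, and RPKM divided them by the union of exons in GENCODE M21 (GRCm38, the build of mm10), which named 48349 genes. Library totals ranged from 20018234 to 37149112 counts. The scripts were tested on simulated counts.

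The members, pathway lists and marker lists were chosen with earlier results of these data known. Named were all members, the 3 called genes of each pathway list and the 2 called genes of each marker list with the largest change and a mean of at least 50 counts, and for each member with that mean the 2 genes most correlated with it, from tested genes with a mean of at least 100 counts. Exceptions are named as such. Neighbours that share exon bases are given for Nrg1, Fgfr2, Fgf2 and Pik3r3; Fgfr1, Erbb2, Fgfr3, Igfbp7, Lrig1, Tgfa, Olig1 and Tagln also share exon bases with an annotated gene on the opposite strand, and their counts may include its reads. Alternatives were other scalings, DESeq2 1.42.0, other filters, each library left out, the replicate number as a term, and all annotated 3′ UTRs. Same-numbered samples did not deviate together (correlations from -0.229 to 0.325), so numbers were not treated as pairs.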

Additional observations from a re-analysis of the deposited data

Results flagged for a closer look

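Of 20 groups examined (10 genes in control and in mimic), 2 held a library whose gap to its neighbour passed Dixon's 95% critical value for 6 samples, where chance gives about 1. Both belong to Erbb3, the gene with the fewest counts. In control, replicate 2 was at 1.06 CPM from 25 counts while the other 5 libraries were at 0.606 to 0.752 CPM. In mimic, replicate 6 was at 0.176 CPM from 5 counts while the others were at 0.532 to 0.711 CPM. The log2 fold change of Erbb3 was -0.29 without mimic replicate 6.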

How the results depend on the processing

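The calls of all 10 genes were the same under median-ratio scaling, library totals alone, DESeq2, both other count filters, the replicate number as a block, and the omission of each library. Over these alternatives the adjusted p of Nrg1, the weakest call, ranged from 0.000204 to 0.0177. The direction turned in 2 differences that were never called: Fgf2 was -0.0039 without control replicate 2 (range over omissions -0.0039 to 0.096) and Fgfr1 was -0.0026 without control replicate 6 (range -0.0026 to 0.067). Under omissions, Egfr ranged from 0.85 to 0.92, Fgfr2 from 0.40 to 0.45, Hbegf from -0.36 to -0.30, Nrg1 from -0.26 to -0.21, Erbb3 from -0.55 to -0.29, Igf1r from 0.064 to 0.11, Erbb4 from 0.028 to 0.098 and Erbb2 from 0.0032 to 0.14. Pathway genes called ranged from 24 to 34 higher and from 12 to 23 lower, and all tested genes from 1880 to 2697 higher and from 1612 to 2453 lower.

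With the replicate block, Egfr was at 0.90 (edgeR adjusted p = 3.01e-07) and the calls were 25 pathway genes higher and 16 lower, with 1950 and 1709 over all tested genes. The block changed no call among the 10 genes, and no sample correlated best with its own number. Searching all annotated 3′ UTRs gave the same 2 genes with a mimic match. Counts limit Erbb3 most.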
